A study of Mus musculus with 30 samples.

Results

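The 9 genes described here belong to the PPAR-alpha programme and were followed through the kidneys and aortae of mice on a standard or a high-fat diet. They were taken by name: the receptor gene Ppara itself and 8 of its known targets, Cyp4a10, Cyp4a14, Ehhadh, Acot1, Acot2, Pdk4, Plin2 and Angptl4. All 9 were present among the 41128 genes of both count files. No measured value entered that choice, although earlier results of these data were known when the list was drawn up.

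PPAR-alpha is a nuclear receptor that binds fatty acids and their derivatives and, as a dimer with a retinoid X receptor, switches on genes of fatty acid use. In liver, heart and the proximal tubule of the kidney it is known for raising fatty acid oxidation during fasting and lipid load, and in rodents its activators strongly raise Cyp4a and peroxisomal genes. Of the targets followed here, Cyp4a10 and Cyp4a14 are microsomal omega-hydroxylases of fatty acids, Ehhadh is the peroxisomal bifunctional enzyme of beta-oxidation, and Acot1 and Acot2 are the cytosolic and mitochondrial thioesterases that release fatty acids from acyl-CoA. Pdk4 encodes a kinase that shuts off pyruvate dehydrogenase and so spares glucose, Plin2 a coat protein of lipid droplets, and Angptl4 a secreted inhibitor of lipoprotein lipase. Several of these genes also respond to other PPAR forms, to glucocorticoids and to fasting.

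The study asked how deletion of the EGF receptor from vascular smooth muscle changes the response to a high-fat diet (HFD) compared with a standard-fat diet (SFD). RNA of 16 kidneys (4 in each genotype and diet group) and of 14 aortae (3 WT-SFD, 4 WT-HFD, 3 KO-SFD and 4 KO-HFD) was sequenced. Total counts ranged from 16354880 to 28331314 per kidney library (median 19544128) and from 6403699 to 13052870 per aorta library. The tissues were sequenced at different sites and were therefore never fitted together.

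All mice were males, with a C57Bl6J background per the labels. KO mice carried floxed Egfr and a tamoxifen-inducible Cre on the Y chromosome driven by the smooth muscle myosin heavy chain promoter (SMMHC), so that recombination was limited to cells using that promoter. WT mice had that Cre but no loxP site, and both genotypes received tamoxifen, 1 mg per day for 5 days. The diet began at an age of 6 weeks, 7 days after tamoxifen, and was kept up for 18 weeks, and aortae were cleared of surrounding fat before freezing. The library names WT-SFD-1309, KO-SFD-1319 and KO-HFD-1504 occurred in both tissues. No separate culture or litter is recorded in the labels, so p-values measure the spread between these libraries.

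Egfr, the deleted gene, was measured first. In the aorta its level was 46.7, 39.5 and 54.3 FPM (the CPM unit, with library totals scaled by TMM factors) in WT-SFD and 65.1, 57.0, 51.2 and 57.0 FPM in WT-HFD. In KO-SFD it was 26.8, 35.5 and 28.0 FPM and in KO-HFD 27.5, 40.6, 39.7 and 33.4 FPM. Egfr was thus lower in every KO aorta than in every WT aorta of the same diet, with log2 differences of -0.64 on SFD (SE 0.167, edgeR adjusted p = 0.547) and -0.70 on HFD (SE 0.143, edgeR adjusted p = 0.129), neither of which passed the adjustment over all genes. In the kidney, where smooth muscle is a small part, Egfr ranged from 36.9 to 60.8 FPM and differed by 0.09 on SFD (edgeR adjusted p = 0.848) and -0.09 on HFD (edgeR adjusted p = 0.9998).

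The labelled tissues were checked against marker genes. In the kidney all 11 proximal tubule markers were detected, their summed level ran from 22624 to 43233 FPM and Kap was the most abundant. In the aorta 5 of 7 smooth muscle markers were detected (Tagln and Cnn1 lie on chromosome 9, which held no count in either file), Acta2 was the most abundant and the sum ran from 9919 to 17909 FPM, against 108 to 159.9 FPM in the kidney. The 4 globin genes Hba.a1, Hba.a2, Hbb.bs and Hbb.bt, which mark red cells, summed to 1964 to 7032 FPM in the kidneys and to 13.1 to 804 FPM in the aortae, and the fifth red cell marker, Alas2, lies on chromosome X, which also held no count. Several libraries stood apart. In the kidney, WT-SFD-1446 was the highest of 16 libraries in 4 of the 9 genes. In the aorta, WT-SFD-1309, WT-SFD-1310 and KO-SFD-1319, which were the 3 highest libraries in all 7 PPAR-alpha genes that could be tested, also held the most transcript of 16 adipocyte markers. In bulk tissue, fewer cells of a type and less RNA per cell cannot be told apart.

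The 9 genes lie on 6 chromosomes (GRCm38, GENCODE annotation). Ppara is at chr15:85734983-85802819 on the plus strand, Ehhadh at chr16:21761287-21787807 on the minus strand, Pdk4 at chr6:5483351-5496309 on the minus strand, Plin2 at chr4:86648386-86670060 on the minus strand and Angptl4 at chr17:33773750-33781830 on the minus strand. Cyp4a10 (chr4:115518264-115533649, plus strand) and Cyp4a14 (chr4:115486200-115496142, minus strand) are neighbours, as are Acot1 (chr12:84009490-84018371, plus strand) and Acot2 (chr12:83987861-83993873, plus strand).

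Both pairs of neighbours are paralogs, and their likeness decides how far their counts can be separated. The coding sequences of Acot1 and Acot2 are 95.5% identical (1183 of 1239 aligned bases), with an unbroken identical run of 273 bases. Those of Cyp4a10 and Cyp4a14 are 75.4% identical (1149 of 1524 aligned bases), and their longest identical run is 23 bases. Below are the same 90 coding bases of each pair, 5′ to 3′, with the bases that differ within the pair in capitals. Each stretch spans an intron. The Acot1 stretch covers coding bases 576 to 665 (chr12:84014497-84016784, plus strand), the Acot2 stretch 699 to 788 (chr12:83990612-83992506, plus strand), the Cyp4a10 stretch 821 to 910 (chr4:115525335-115525513, plus strand) and the Cyp4a14 stretch 815 to 904 (chr4:115491462-115491634, minus strand).
Acot1: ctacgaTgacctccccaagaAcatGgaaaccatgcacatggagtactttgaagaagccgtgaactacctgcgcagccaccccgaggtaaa
Acot2: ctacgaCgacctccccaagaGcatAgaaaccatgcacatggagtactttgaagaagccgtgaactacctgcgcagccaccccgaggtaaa
Cyp4a10: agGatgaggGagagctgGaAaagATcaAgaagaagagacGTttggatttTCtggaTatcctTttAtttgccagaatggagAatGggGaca
Cyp4a14: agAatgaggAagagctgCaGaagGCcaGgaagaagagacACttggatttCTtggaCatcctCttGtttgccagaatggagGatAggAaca

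Only 3 of the 90 bases differ between the thioesterases, against 17 of 90 between the hydroxylases. Over whole transcripts, 17.1% of the 100-base windows of Acot2 also occur in Acot1, and 12.4% of those of Acot1 occur in 6 other genes, most of them in Acot2 (9.32%). For Cyp4a10 the share is 12.2%, with Cyp4a31 and Cyp4a32, and for Cyp4a14 it is 0, as it is for Ppara, Pdk4, Ehhadh and Angptl4. Plin2 shares 0.115% with the gene Gm12551. How the authors' counting treated reads that match several genes is not given in the sources used here, so the values of Acot1, Acot2 and Cyp4a10 are uncertain to that extent.

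The kidney transcribed all 9 genes, at levels that spanned a wide range. On the scale of FPM per kilobase of exon, the medians over 16 kidneys were 299 for Cyp4a10 and 242.5 for Ehhadh, which stood far above the rest. Acot1 (34.8), Cyp4a14 (33.5), Plin2 (32.6), Acot2 (21.02) and Angptl4 (17.4 FPM per kilobase) followed. Ppara itself (9.80) and Pdk4 (7.45 FPM per kilobase) were the lowest. Only between Ehhadh and Acot1 were the ranges of neighbours in this order separate, and all other neighbours overlapped across libraries. The ratio of the highest to the lowest kidney was smallest for Plin2 (2.09) and largest for Cyp4a14 (13.1). No gene of the 9 fell below 186 counts in any kidney, the value of Pdk4 in its lowest library.

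**Figure D1:**
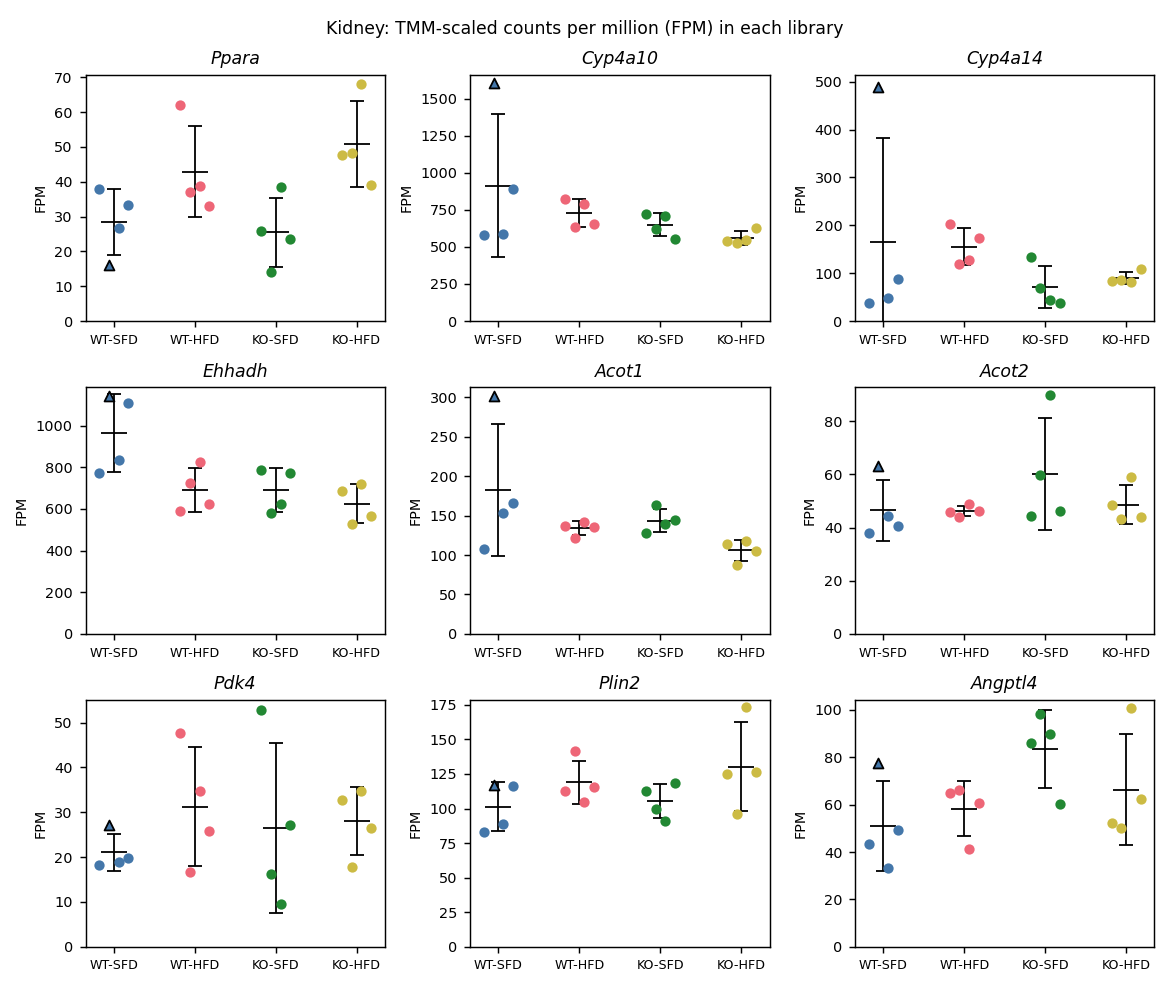
Levels of the 9 genes in the 16 kidneys, in FPM on a linear axis per gene, by genotype and diet. Points are libraries, bars group means and lines the SD (n = 4 each, cut at 0 for Cyp4a14 in WT-SFD), and the triangle is WT-SFD-1446, the highest point for Cyp4a10, Cyp4a14, Ehhadh and Acot1 and a low one for Ppara.

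Ppara was the only one of the 9 genes that passed the test between diets in the kidney, and it was higher on HFD. In WT-SFD kidneys its level was 38.0, 16.02, 26.6 and 33.3 FPM, and in WT-HFD kidneys 62.1, 37.2, 38.9 and 33.2 FPM. In KO-SFD it was 25.8, 14.2, 38.4 and 23.7 FPM, and in KO-HFD 47.6, 48.3, 68.1 and 39.0 FPM. The WT groups overlapped, whereas all 4 KO-HFD kidneys were above all 4 KO-SFD kidneys, as in 5.02% of all tested genes. As group means (SD, n = 4) WT kidneys had 28.5 ± 9.53 FPM on SFD and 42.8 ± 13.1 FPM on HFD, and KO kidneys 25.5 ± 9.95 and 50.8 ± 12.3 FPM. Over both genotypes Ppara rose 1.73-fold, a log2 change of 0.79 (SE 0.206, 95% interval 0.35 to 1.23, edgeR quasi-likelihood test, adjusted p = 0.0384). Within one genotype the change did not pass: it was 0.59 in WT (SE 0.291, interval -0.03 to 1.20, edgeR adjusted p = 0.668) and 0.99 in KO (SE 0.293, interval 0.37 to 1.61, edgeR adjusted p = 0.0971). The difference between the genotypes in this change was 0.40 (interval -0.47 to 1.27, edgeR unadjusted p = 0.343).

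With 1 of 9 genes called, the share was set against a background of 4.48% of 15034 tested genes called in the same comparison, 2.89% of the tested genes being higher. The call of Ppara lay near the threshold. In the 16 fits that left out 1 kidney its log2 change ran from 0.66 to 0.92, with edgeR adjusted p from 0.0152 to 0.0895. The call was lost in 9 of these fits. The libraries whose omission ended it were KO-HFD-1504, KO-HFD-1520, KO-SFD-1303, KO-SFD-1318, KO-SFD-1451, WT-HFD-1535, WT-HFD-1641, WT-SFD-1446 and WT-SFD-1694. DESeq2 called Ppara in the KO diet comparison as well (0.99, adjusted p = 0.026; 4.28% of all genes it tested were called), where edgeR did not.

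No enzyme of fatty acid breakdown among the 9 genes passed the test between diets, and the estimates of Ehhadh and Acot1 were negative. Ehhadh was measured at 774, 1140.3, 833 and 1110.2 FPM in WT-SFD, 589.6, 724, 823 and 626 FPM in WT-HFD, 785, 578, 623 and 775 FPM in KO-SFD, and 687, 529.6, 721 and 564 FPM in KO-HFD. Its WT groups overlapped only through WT-HFD-1641, the highest of its group. The log2 difference between diets was -0.48 in WT (SE 0.161, unadjusted p = 0.00837, edgeR adjusted p = 0.302), -0.14 in KO and -0.31 over both genotypes (SE 0.113, interval -0.55 to -0.07, edgeR adjusted p = 0.142). None of these passed the threshold of 0.05.

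Acot1 gave a similar picture for the cytosolic thioesterase. It was measured at 108, 302, 153 and 166 FPM in WT-SFD, 136, 121, 142 and 136 FPM in WT-HFD, 128, 163, 139 and 144 FPM in KO-SFD, and 114, 87.5, 117 and 105 FPM in KO-HFD. All 4 KO-HFD kidneys were below all 4 KO-SFD kidneys, which 3.85% of all tested genes also were (8.87% were separate in either direction). The log2 difference was -0.44 over both genotypes (SE 0.153, interval -0.76 to -0.11, unadjusted p = 0.011, edgeR adjusted p = 0.125), and it was -0.44 in each genotype. Without WT-SFD-1309, Acot1 passed (edgeR adjusted p = 0.0286), and without WT-SFD-1446 the difference was -0.08 in WT and -0.26 over both genotypes (edgeR adjusted p = 0.152). Its mitochondrial paralog Acot2 showed a difference of -0.16 (interval -0.45 to 0.14) with the single highest value, 90.03 FPM, in KO-SFD-1319.

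The omega-hydroxylases Cyp4a10 and Cyp4a14 varied more between mice than between diets. Cyp4a10 was measured at 577, 1603, 585 and 889 FPM in WT-SFD, 820.4, 635, 792 and 656 FPM in WT-HFD, 719, 619.9, 705 and 551 FPM in KO-SFD, and 542, 526.0, 545 and 627 FPM in KO-HFD. The diet groups overlapped in both genotypes, and the log2 difference over both was -0.27 (interval -0.64 to 0.09, edgeR adjusted p = 0.438). Cyp4a14 was measured at 37.7, 488, 48.8 and 88.4 FPM in WT-SFD and 202, 119, 128 and 173 FPM in WT-HFD. In KO-SFD it was 134, 69.2, 44.8 and 37.4 FPM, and in KO-HFD 84.5, 86.0, 82.0 and 109 FPM. The extremes of Cyp4a14 both lay on the standard diet, where 1 WT kidney reached 488 FPM and the others stayed below every WT-HFD kidney. Its log2 difference was -0.09 in WT (SE 0.607, interval -1.37 to 1.20), 0.34 in KO and 0.13 over both genotypes (edgeR adjusted p = 0.917).

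The WT value of Cyp4a14 rested on 1 library. Without WT-SFD-1446 its diet difference became 1.42 in WT (SE 0.387, edgeR adjusted p = 0.156) and 0.87 over both genotypes (SE 0.258, edgeR adjusted p = 0.0747). The corresponding values of Cyp4a10 went from -0.33 to 0.09 in WT and from -0.27 to -0.065 over both genotypes without it. That library also had the lowest Dbp (20.2 FPM) and Per2 (8.29 FPM) of all kidneys, both clock output genes that swing over the day. Its adipocyte markers without Pck1, a gene the proximal tubule also expresses, summed to 296 FPM, against 69.98 to 851 FPM over the SFD kidneys. With Dbp less Arntl as a covariate, chosen after seeing the data, the WT difference of Cyp4a14 was 0.73 (edgeR adjusted p = 0.877). The part of the clock genes was not tested beyond that covariate, and that of the adipocyte markers was not tested.

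The remaining targets gave no call. Pdk4 was measured at 18.3, 27.1, 18.8 and 19.9 FPM in WT-SFD, 47.7, 16.6, 34.8 and 25.8 FPM in WT-HFD, 52.7, 16.2, 9.51 and 27.3 FPM in KO-SFD, and 32.7, 17.9, 34.8 and 26.5 FPM in KO-HFD. All groups of Pdk4 overlapped, and its log2 difference over both genotypes was 0.32 (interval -0.28 to 0.93, edgeR adjusted p = 0.590), from 0.17 without WT-HFD-1535 to 0.62 without KO-SFD-1303. Plin2 ranged from 83.2 FPM in WT-SFD-1309 to 174 FPM in KO-HFD-1520, with means (SD, n = 4) of 101 ± 18.0 FPM in WT-SFD, 119 ± 15.9 FPM in WT-HFD, 105 ± 12.5 FPM in KO-SFD and 130.2 ± 32.2 FPM in KO-HFD. Its difference was 0.27 (interval 0.02 to 0.51, unadjusted p = 0.036, edgeR adjusted p = 0.234). Angptl4 differed by 0.20 in WT (interval -0.34 to 0.75) and -0.34 in KO (interval -0.88 to 0.21), and by -0.07 over both (edgeR adjusted p = 0.885). Without WT-SFD-1446 the difference of Angptl4 was 0.48 in WT (SE 0.24, edgeR adjusted p = 0.782) and 0.065 over both genotypes, and that of Acot2 over both went from -0.16 to -0.068.

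Over the 9 genes, 4 had an unadjusted p under 0.05 in the kidney diet comparison over both genotypes (Ppara, Acot1, Ehhadh and Plin2), where 17.9% of all tested genes did. Of these, Ppara and Plin2 were higher and Acot1 and Ehhadh lower on HFD. The median log2 difference of the 9 was -0.07, against -0.0058 over all tested genes. In WT alone edgeR called 0 of 9 genes (background 0.911%), 1 had an unadjusted p under 0.05 (7.9% of all genes) and DESeq2 called 0. In KO alone edgeR called 0 of 9 (background 2.3%), 1 had an unadjusted p under 0.05 (15.8%) and DESeq2 called 1, Ppara. At the study's own threshold of 0.001, 0 of 9 passed in any comparison. Of the 9 estimates over both genotypes 4 were positive (Ppara, Plin2, Pdk4 and Cyp4a14) and 5 negative, against 48.6% positive over all tested genes, and Ppara alone passed.

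**Figure D2:**
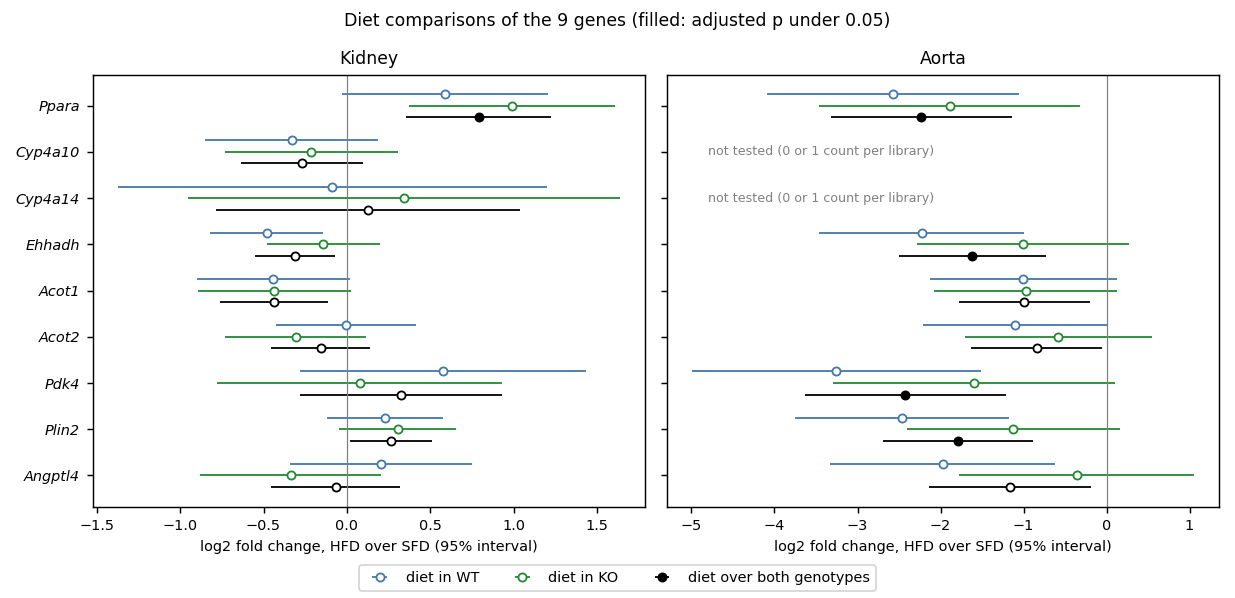
Log2 fold change of HFD over SFD for each gene, with 95% intervals, in WT, in KO and over both genotypes, for kidney (left) and aorta (right, another scale). Filled points have an edgeR adjusted p under 0.05: Ppara in the kidney, and Ppara, Ehhadh, Pdk4 and Plin2 in the aorta, all over both genotypes.

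Between genotypes, no PPAR-alpha gene of the kidney passed the adjusted threshold. On SFD, edgeR called 0 of 9 (background 0.0133%), 2 had an unadjusted p under 0.05 (8.37% of all genes) and DESeq2 called 0. Those were Angptl4 and Ehhadh. Angptl4 was measured at 43.2, 77.5, 33.1 and 49.4 FPM in WT-SFD and 86.3, 98.2, 89.9 and 60.2 FPM in KO-SFD, and at 64.8, 66.3, 41.3 and 60.6 FPM in WT-HFD and 52.1, 50.1, 101 and 62.4 FPM in KO-HFD. On SFD, 3 of 4 KO kidneys exceeded every WT kidney in Angptl4, with a log2 difference of 0.72 (SE 0.258, interval 0.18 to 1.27, unadjusted p = 0.0126, edgeR adjusted p = 0.518), and on HFD it was 0.18 (interval -0.36 to 0.73). Ehhadh differed by -0.48 on SFD (interval -0.82 to -0.14, unadjusted p = 0.00823, edgeR adjusted p = 0.484) and by -0.14 on HFD. Without WT-SFD-1446 the SFD differences were 1.01 for Angptl4 (unadjusted p = 0.00086), -0.38 for Ehhadh (unadjusted p = 0.0331) and, for Acot2, 0.56 in place of 0.37 (unadjusted p = 0.0106), so that 3 of 9 had an unadjusted p under 0.05 (10.5% of all genes) and edgeR called 0 of the 9. That kidney was singled out after its values of the 9 genes were seen, so these p-values are not independent of the choice. Clock and glucocorticoid-responsive genes differed in the same comparison: 13 of 16 clock genes had an unadjusted p under 0.05 (median 0.46, 5 of 16 without WT-SFD-1446), with Dbp at 1.88, as had 3 of 6 glucocorticoid-responsive genes (median 0.63), where 8.37% of all genes had one. Of these lists edgeR called 0 genes and DESeq2 called Ciart of the clock list. Of 15 adipocyte markers tested, 13 had higher estimates in KO (median 1.20), 1 with an unadjusted p under 0.05 and 0 called by edgeR. Without Pck1 that list averaged 171 FPM (SD 115) in WT-SFD and 376 FPM (SD 362) in KO-SFD. The part of these lists in the result was not tested.

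On HFD the KO kidneys were lower than the WT kidneys, without overlap, in Cyp4a10, Cyp4a14 and Acot1. These 3 of 9 compare with 0.678% of all tested genes that were lower without overlap and 1.32% that were separate in either direction. The 3 genes are not independent of each other. With group means removed they were the closest of the 9 to their mean (r = 0.84 for Cyp4a10, 0.781 for Cyp4a14 and 0.807 for Acot1). For Cyp4a10 the highest KO-HFD kidney had 627 FPM and the lowest WT-HFD kidney 635 FPM. For Cyp4a14 these neighbours were 109 and 119 FPM, and for Acot1 117 and 121 FPM. The gaps were thus narrow, and the log2 differences were -0.37 for Cyp4a10 (interval -0.89 to 0.14, unadjusted p = 0.145), -0.78 for Cyp4a14 (interval -2.08 to 0.51, unadjusted p = 0.219) and -0.34 for Acot1 (interval -0.80 to 0.12, unadjusted p = 0.137). In edgeR each had an adjusted p of 0.9998, 0 of 9 were called (background 0.00665%), 0 had an unadjusted p under 0.05 (1.65% of all genes) and DESeq2 called 0. On SFD the estimates for these genes were -0.49, -1.21 and -0.34, and without WT-SFD-1446 they were -0.07, 0.31 and 0.02. On HFD, where that kidney is not compared, its omission left the estimates at -0.37, -0.78 and -0.34. Their SE fell, since that kidney, the highest in these 3 genes, no longer entered the shared spread. Their unadjusted p in edgeR were then 0.0213, 0.0381 and 0.0185 (1.97% of all genes had one under 0.05), and 0 of 9 were called. These p-values come from leaving out a kidney picked for its values of the same genes, and are no test of the difference. The test of whether the diet difference depended on genotype called 0 of 9 genes with edgeR (background 0%) and 0 with DESeq2, with 0 unadjusted p under 0.05 (3.23% of all genes). The smallest p was that of Ehhadh (difference 0.34, interval -0.14 to 0.82, unadjusted p = 0.153). Without WT-SFD-1446, 2 of 9 had an unadjusted p under 0.05 (3.75% of all genes): Angptl4, which went from -0.54 to -0.82 (unadjusted p = 0.0228), and Cyp4a14, which turned from 0.43 to -1.09 (unadjusted p = 0.0494). These p-values too depend on a kidney picked for its values of the same genes. Cyp4a10 turned from 0.12 to -0.31, Acot1 from 0.0045 to -0.36 and Plin2 from 0.074 to -0.0085, and edgeR again called 0 of 9 (smallest adjusted p = 0.951).

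The other genes of the pathway were read from lists of its parts. Among 39 other tested PPAR-alpha targets, the kidney diet comparison over both genotypes called 1 higher and 2 lower, and the median was 0.01. It called 4.48% of all tested genes. The fatty acid binding protein gene Fabp1 rose, by 2.71 on the log2 scale (SE 0.386, edgeR adjusted p = 0.000364), from 0.162 to 1.38 FPM over the SFD kidneys to 0.853 to 4.32 FPM over the HFD kidneys. The medium-chain acyl-CoA dehydrogenase gene Acadm fell by 0.46 (edgeR adjusted p = 0.00353) and the glycerol channel gene Aqp7 fell by 0.49 (edgeR adjusted p = 0.00209). The rise of Fabp1 took place at a very low level.

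Among 17 receptors and coregulators, 1 was called, where 4.48% of all tested genes were. Ppard, the gene of the related receptor PPAR-delta, fell by 0.47 (SE 0.118, edgeR adjusted p = 0.0304), opposite to Ppara. Of 14 perilipins and lipases tested, Plin3, a droplet coat protein, rose by 0.52 (edgeR adjusted p = 0.0021), whereas lipoprotein lipase (Lpl) fell by 1.07 (edgeR adjusted p = 0.00246) and the triglyceride lipase gene Pnpla2 fell by 0.42 (edgeR adjusted p = 0.0297). No gene was called among the 8 tested Cyp4 relatives, the 8 other thioesterases or the 6 tested of 10 listed genes of the pyruvate dehydrogenase complex and its regulators (3, 3 and 2 had an unadjusted p under 0.05). The other 4 of the last list, Pdk3, Pdp2, Pdha1 and Dlat, held no count in either tissue. Their smallest p belonged to Cyp4b1 (0.47), Acot11 (0.32) and Pdk1 (0.38, edgeR adjusted p = 0.0512), of which DESeq2 called Cyp4b1 and Pdk1, and also Pdhb. Without WT-SFD-1446 edgeR called 3 other targets higher and 3 lower (3.97% of all genes were called), and it no longer called Ppard or Pnpla2.

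Within a genotype, edgeR called Fabp1 (3.54), Aqp7 (-0.61), Plin3 (0.53) and Lpl (-1.07) between diets in KO kidneys (background 2.3%). It called no gene of these lists in WT kidneys (background 0.911%). In WT the same genes had log2 differences of 1.88 for Fabp1, -0.37 for Aqp7, 0.52 for Plin3 and -1.07 for Lpl. DESeq2 called Fabp1, Acadm, Plin3, Lpl and Ppard in WT as well (1.5% of all genes it tested were called). Between genotypes edgeR called no gene of these pathway lists on either diet, and DESeq2 called none.

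Some markers of other cell types also passed in the diet comparison over both genotypes, where 4.48% of all tested genes were called. Of 11 proximal tubule markers 3 rose on HFD, the glucose transporter gene Slc5a2 by 1.37, the anion transporter gene Slc22a8 by 0.98 and Slc5a12 by 0.94. By estimate 6 of the 11 were higher and 5 lower (median 0.03). The summed list was 35278 and 34156 FPM on SFD and 30885 and 30919 FPM on HFD in WT and KO. Kap made up much of that sum, with 14873 to 25027 FPM over the SFD kidneys and 7973 to 17825 FPM over the HFD kidneys. Of 10 other nephron markers, Slc12a3 rose by 0.40 and Umod fell by 0.41. Of 15 tested adipocyte markers, Lep (3.995) and Pck1 (1.00) rose and Cfd fell by 3.87. By estimate, 12 of the 15 were lower and 3 higher (median -1.025), and 6 had an unadjusted p under 0.05. All 16 were detected, Pck1 was the most abundant in every kidney, and the list without Pck1 averaged 171 and 376 FPM on SFD and 111 and 142 FPM on HFD in WT and KO. The metallothionein genes Mt2 and Mt1, from 6 tested glucocorticoid-responsive genes, fell by 1.34 and 0.93. None of 16 clock genes was called by edgeR, 5 had an unadjusted p under 0.05, and DESeq2 called 3 (Hlf, Nr1d1 and Per2). With the mean of the tubule markers as a covariate the Ppara difference was 0.63 (edgeR adjusted p = 0.228), and with Dbp less Arntl as a covariate, chosen after seeing the data, it was 0.67 (edgeR adjusted p = 0.0755). The smooth muscle list (4 tested), the leucocyte list (7 tested), the red cell list (4 tested) and the adrenal list (1 tested) held no call in edgeR.

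The clock genes differed widely between single kidneys. Dbp ranged from 20.2 FPM in WT-SFD-1446 to 253 FPM in KO-SFD-1319. Per2 was higher in all 4 WT-HFD than in all 4 WT-SFD kidneys, by 1.20 (SE 0.393, unadjusted p = 0.00748, edgeR adjusted p = 0.285). The time of day at which each mouse was killed is not given in the sources used here. The part of the time of day in the Ppara result was not tested beyond that covariate.

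**Figure D3:**
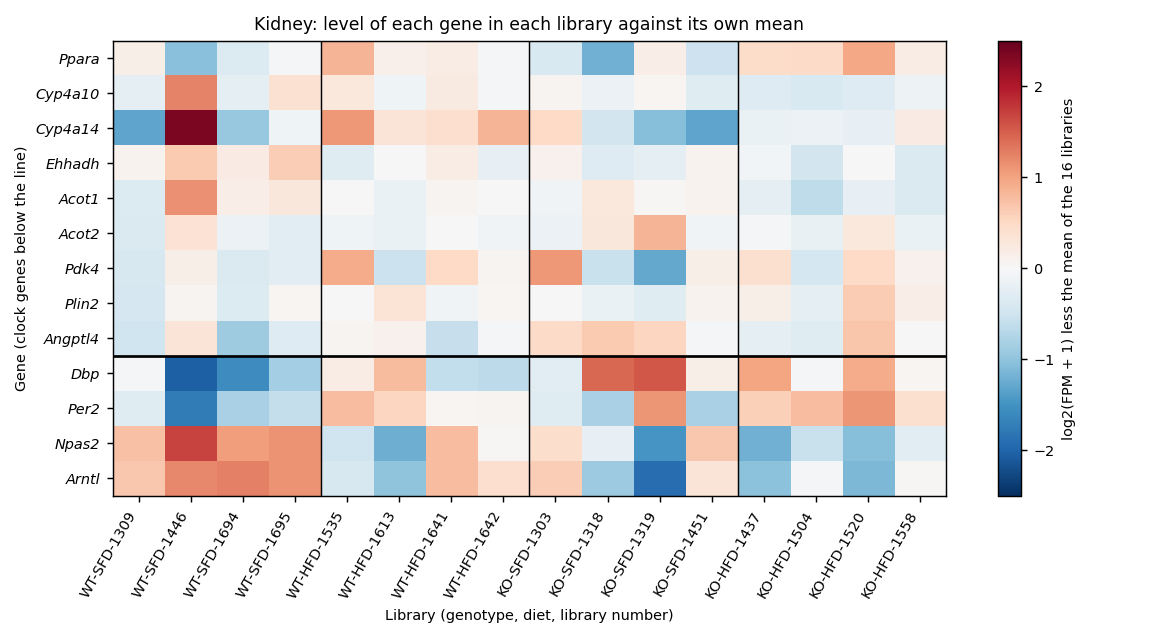
Each kidney's level of the 9 PPAR-alpha genes (above the line) and of the clock genes Dbp, Per2, Npas2 and Arntl (below it) as a colour, log2(FPM + 1) less the gene's mean over the 16 kidneys, with libraries in columns by group. WT-SFD-1446 is high in Cyp4a10, Cyp4a14, Ehhadh, Acot1 and Npas2 and low in Ppara, Dbp and Per2, and the 4 KO-HFD kidneys are above the mean in Ppara.

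Genes that followed the mean of the 9 across the 16 kidneys were named by Pearson's r on log2 values, as a description, since all libraries share the same scaling. The closest were Mcl1 (0.813), Ado (0.783), Retsat (0.77) and Tmem55a (0.761), followed by Ttc4, Map3k10, Tfip11 and Irf2bp1. With group means removed they were Ttc4 (0.861), Mcl1 (0.84), Slc15a4 (0.838) and Lrp3 (0.829). Each of the 9 genes is itself part of that mean. As measured, Cyp4a14 (0.769) and Cyp4a10 (0.754) tracked the mean best among them and Ppara (-0.066) did not track it. With group means removed, Cyp4a10 (0.84), Acot1 (0.807) and Cyp4a14 (0.781) came first, and Ppara was at -0.116.

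The aorta transcribed 7 of the 9 genes at a testable level. Cyp4a10 had 1 count and Cyp4a14 had 3 counts over all 14 aortae, so neither passed the filter and neither was tested. On the scale of FPM per kilobase the medians were 6.68 for Pdk4, 6.46 for Plin2, 3.08 for Acot2, 2.90 for Angptl4, 1.74 for Ehhadh, 0.920 for Ppara and 0.291 for Acot1. All neighbours in this order down to Acot1 overlapped across libraries. The spread was far wider than in the kidney: the highest aorta exceeded the lowest 37.1-fold in Pdk4, 21.7-fold in Angptl4 and 21.4-fold in Ppara. Acot1 had only 2 to 22 counts per aorta.

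**Figure D4:**
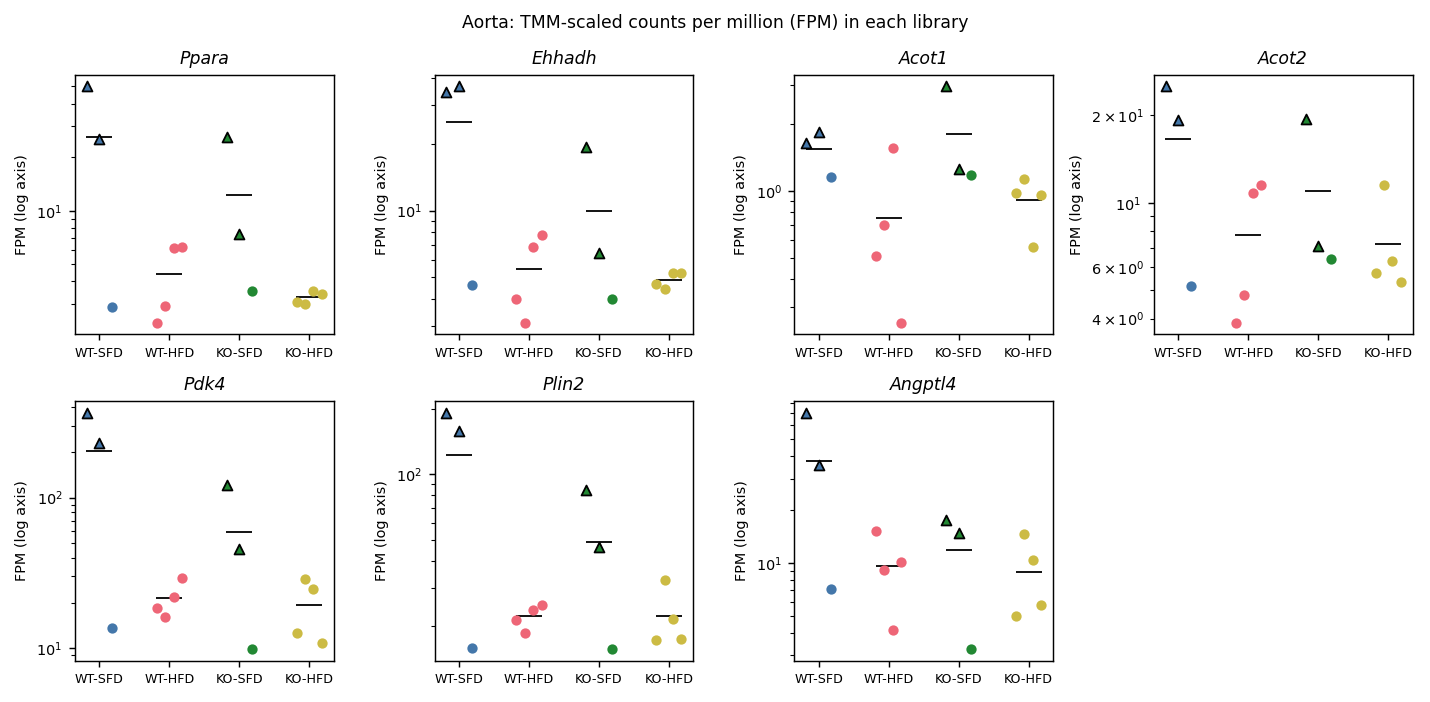
Levels of the 7 tested genes in the 14 aortae, in FPM on a log axis, by genotype and diet. Points are libraries and bars group means, and the triangles are the 4 SFD aortae with the most adipocyte transcript, of which 3 lie above all other aortae in every panel.

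On HFD 4 of the 7 genes fell in the aorta, namely Ppara, Pdk4, Plin2 and Ehhadh. Ppara was measured at 50.1, 25.2 and 2.89 FPM in WT-SFD, 2.35, 2.91, 6.15 and 6.27 FPM in WT-HFD, 25.9, 7.38 and 3.54 FPM in KO-SFD, and 3.06, 3.01, 3.52 and 3.42 FPM in KO-HFD. The SFD groups were split, with the third WT-SFD aorta at the level of the HFD aortae. Over both genotypes Ppara fell by 2.23 on the log2 scale (SE 0.512, interval -3.32 to -1.14, edgeR adjusted p = 0.0296). This direction was opposite to that in the kidney, and the tissues were not tested against each other.

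Pdk4 showed the widest split. It was measured at 367, 232 and 13.6 FPM in WT-SFD, 18.5, 16.2, 22.0 and 29.2 FPM in WT-HFD, 122, 45.6 and 9.88 FPM in KO-SFD, and 12.6, 28.7, 24.9 and 10.8 FPM in KO-HFD. The SFD aortae thus included both the highest and the lowest values of Pdk4. It fell by 2.42 over both genotypes (SE 0.566, interval -3.63 to -1.22, edgeR adjusted p = 0.0314). The estimate was -3.26 in WT (edgeR adjusted p = 0.078) and -1.59 in KO (edgeR adjusted p = 0.678).

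Plin2 and Ehhadh showed the same libraries on top. Plin2 was measured at 192, 159 and 15.9 FPM in WT-SFD, 21.5, 18.6, 23.8 and 25.2 FPM in WT-HFD, 84.9, 46.5 and 15.8 FPM in KO-SFD, and 17.4, 32.7, 21.6 and 17.5 FPM in KO-HFD, and it fell by 1.79 (SE 0.424, edgeR adjusted p = 0.0318). Ehhadh was measured at 34.4, 36.5 and 4.62 FPM in WT-SFD, 3.98, 3.12, 6.88 and 7.80 FPM in WT-HFD, 19.4, 6.41 and 3.99 FPM in KO-SFD, and 4.65, 4.41, 5.20 and 5.20 FPM in KO-HFD, and it fell by 1.62 (SE 0.415, edgeR adjusted p = 0.0434). In Plin2 1 SFD aorta of each genotype lay below all HFD values, and in Ehhadh 1 WT-SFD and 2 KO-SFD aortae lay within the range of the HFD values.

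Angptl4, Acot1 and Acot2 did not pass. Angptl4 was measured at 70.7, 35.8 and 7.07 FPM in WT-SFD, 15.1, 9.15, 4.17 and 10.1 FPM in WT-HFD, 17.5, 14.8 and 3.26 FPM in KO-SFD, and 5.01, 14.6, 10.4 and 5.75 FPM in KO-HFD (difference -1.17, interval -2.14 to -0.19, edgeR adjusted p = 0.185). Acot2 was measured at 25.1, 19.2 and 5.20 FPM in WT-SFD, 3.88, 4.82, 10.8 and 11.5 FPM in WT-HFD, 19.4, 7.10 and 6.44 FPM in KO-SFD, and 5.75, 11.6, 6.32 and 5.34 FPM in KO-HFD (difference -0.84, interval -1.63 to -0.05, edgeR adjusted p = 0.239). Acot1 differed by -0.99 (interval -1.78 to -0.20, edgeR adjusted p = 0.161). All 3 had an unadjusted p under 0.05. When single aortae were left out, Angptl4 ran from -1.40 to -0.77, Acot2 from -1.04 to -0.49 and Acot1 from -1.29 to -0.72. Without WT-SFD-1445, Angptl4 (edgeR adjusted p = 0.0205) and Acot2 (edgeR adjusted p = 0.043) passed, as did 12.1% of all genes tested.

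The 4 calls of 7 stand against 3.79% of 14796 tested genes called in this comparison, 3.47% of the tested genes being lower, and all 7 genes had an unadjusted p under 0.05, where 18.5% of all genes did. The median difference of the 7 was -1.62, against -0.0049 over all tested genes. In WT alone edgeR called 0 of 7 (background 0%), with adjusted p of 0.078 for Pdk4 and Plin2, 0.0798 for Ehhadh and 0.0867 for Ppara and with 5 unadjusted p under 0.05 (16.7% of all genes), whereas DESeq2 called 4, and 4.36% of all genes it tested. In KO alone edgeR called 0 of 7 (background 0%), 1 had an unadjusted p under 0.05 (7.47%) and DESeq2 called 0. In KO, Ppara and Acot1 were lower in every HFD than in every SFD aorta, with differences of -1.89 and -0.97, as were 3.59% of all genes. When single aortae were left out, Ppara in KO ran from -2.355 to -0.71 and Acot1 in KO from -1.225 to -0.43. At the threshold of 0.001, 0 of 7 passed.

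The fall on HFD moved with adipocyte transcript. All 16 adipocyte markers were detected in the aorta, their most abundant gene was Fabp4 in every library, and their summed level was 5259, 3873 and 119 FPM in WT-SFD, 192, 148, 279.9 and 251 FPM in WT-HFD, 2914, 1099 and 121 FPM in KO-SFD, and 88.8, 203, 176 and 85.2 FPM in KO-HFD. The defining marker Adipoq ran from 1.37 FPM in KO-HFD-1505 to 195 FPM in WT-SFD-1309, and none of the markers' sums was at 0. WT-SFD-1309, WT-SFD-1310 and KO-SFD-1319 were the 3 highest aortae in this sum and in all 7 PPAR-alpha genes, and KO-SFD-1452 was the fourth in the sum. Their smooth muscle sums were 9919, 12260.0 and 10675 FPM for the first 3, against 14838 to 17909 FPM in the others. The globin genes ran the other way: their sum was 27.3, 13.1 and 20.6 FPM in WT-SFD-1309, WT-SFD-1310 and KO-SFD-1319, against 166 to 804 FPM in the other 11 aortae. The part of blood left in the vessels in the result was not tested.

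With the mean of the adipocyte markers as a covariate, edgeR called 0 of the 7 genes between diets, and 4 of all 14796 genes tested (0.027%), against 561 without the covariate. In KO alone 3 of 7 then had an unadjusted p under 0.05 (4.32% of all genes), and the KO estimates of Pdk4, Plin2 and Ehhadh were positive. In WT alone 0 had one (7.67%), and 0 were called in either genotype. Over both genotypes the differences became -0.10 for Ppara (edgeR adjusted p = 0.979), -0.02 for Ehhadh, 0.11 for Plin2 and 0.33 for Pdk4. Without the 4 SFD aortae that held the most adipocyte transcript, a choice made after seeing the data, they were 0.24 for Ppara, 0.26 for Ehhadh, 0.50 for Plin2 and 0.82 for Pdk4, again with 0 of 7 called, with 0 called of all 15861 genes tested, and with an unadjusted p under 0.05 for Plin2 (0.0392) and Pdk4 (0.0279), where 5.97% of all genes had one. That fit had 1 SFD aorta of each genotype, assumed to vary like the other groups. When single aortae were left out the fall stayed large, at -1.64 to -2.49 for Ppara, -1.87 to -2.69 for Pdk4, -1.46 to -2.05 for Plin2 and -1.15 to -1.86 for Ehhadh, but 0 of 7 were called in 11 of these 14 fits, in 9 of which at most 1 gene of all those tested was called. Without WT-SFD-1445, the WT-SFD aorta with little adipocyte transcript, 6 of 7 genes were called, as were 12.1% of all genes tested.

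**Figure D5:**
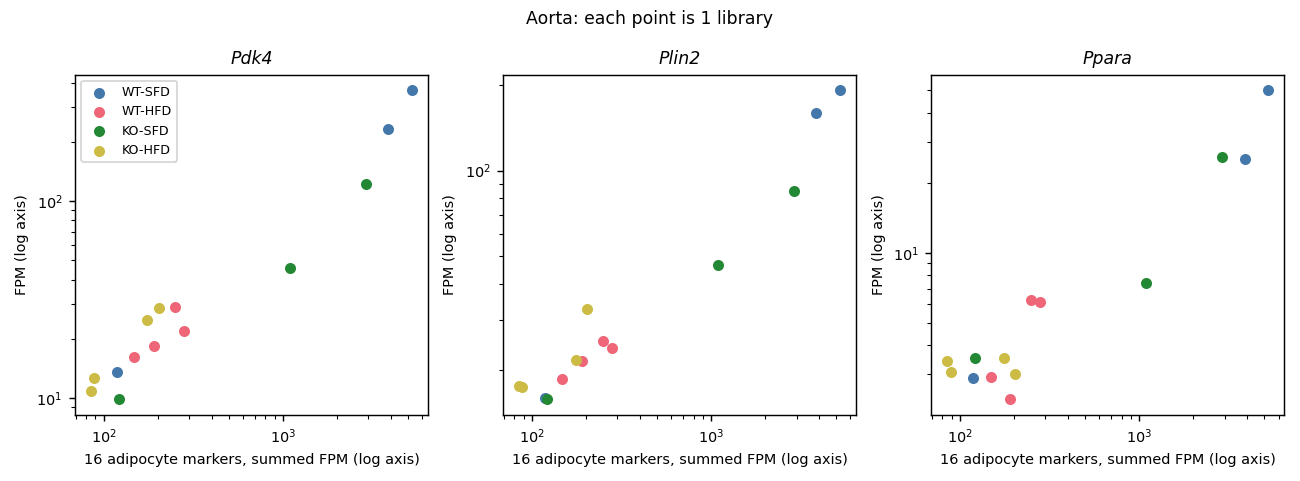
Level of Pdk4, Plin2 and Ppara in each aorta (vertical, FPM, log axis) against the summed level of the 16 adipocyte markers (horizontal, FPM, log axis), coloured by genotype and diet. The 4 SFD aortae with a sum of 1099 FPM or more lie to the right, 3 of them above all other aortae, and the 10 others lie together at 85.2 to 279.9 FPM.

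Between genotypes the aortic PPAR-alpha genes gave no call. On SFD edgeR called 0 of 7 (background 0.0811%), 2 had an unadjusted p under 0.05 (6.14% of all genes) and DESeq2 called 0. These were Angptl4 (-1.70, interval -3.18 to -0.22, unadjusted p = 0.0272, edgeR adjusted p = 0.776) and Ehhadh (-1.37, interval -2.67 to -0.06, unadjusted p = 0.0417, edgeR adjusted p = 0.799). Single aortae moved both, Angptl4 from -2.20 without WT-SFD-1445 to -0.90 without WT-SFD-1309 and Ehhadh from -2.30 without KO-SFD-1319 to -0.93 without KO-SFD-1507. They were -1.04 and -0.73 with the adipocyte covariate, and -1.11 and -0.21 without the 4 adipocyte-rich aortae. With that covariate 4 of 7 had an unadjusted p under 0.05 (7.36% of all genes), those 2, Pdk4 (-0.79, unadjusted p = 0.000486) and Plin2 (-0.52, unadjusted p = 0.0049), and without the 4 aortae 0 had. The leucocyte markers also differed on SFD: all 7 tested had higher estimates in KO, 4 with an unadjusted p under 0.05 and 0 called (median 0.65), and they summed to 98.5 to 108 FPM in WT-SFD and 151 to 220 FPM in KO-SFD. Their part in the result was not tested. On HFD the estimates lay between -0.43 for Ppara and 0.22 for Acot1, edgeR called 0 of 7 (background 0.0811%), 0 had an unadjusted p under 0.05 (5.04%) and DESeq2 called 0. With the adipocyte covariate 1 of 7 had one on HFD (7.37% of all genes), and edgeR called 0. The diet difference was less negative in KO than in WT for all 7 genes, by 0.03 for Acot1 to 1.66 for Pdk4, but edgeR and DESeq2 each called 0 (background 0%) with 0 unadjusted p under 0.05 (4.1% of all genes). These differences ran from 0.0019 for Acot1 to 1.15 for Angptl4 with the adipocyte covariate, and from -0.72 for Ppara to 1.03 for Angptl4 without the 4 adipocyte-rich aortae, again with 0 called. With the covariate 4 of 7 had an unadjusted p under 0.05 (6.31% of all genes), namely Pdk4 (1.10, unadjusted p = 0.000289), Plin2 (0.87, unadjusted p = 0.000709), Ehhadh (0.95, unadjusted p = 0.0227) and Angptl4 (unadjusted p = 0.0489), and without the 4 aortae 0 had.

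Many other genes of the pathway were called lower in the aorta on HFD, and with the adipocyte covariate, where only 0.027% of all genes tested were called, these calls were lost like nearly all others. Without that covariate 3.47% of all tested genes were called lower. Of 38 other PPAR-alpha targets tested, 26 were called lower and 0 higher, with a median of -1.42. Among them the peroxisomal transporter gene Abcd2 (-2.82), the fatty acid uptake receptor gene Cd36 (-3.06) and the dehydrogenase genes Acadl (-2.02) and Acadm (-1.62) fell. Cpt1a, the carnitine palmitoyltransferase gene, differed by 0.08 (edgeR adjusted p = 0.695). Of 13 perilipins and lipases 9 fell, among them Lpl (-3.27), Cidec (-3.69), Cidea (-3.54) and Pnpla2 (-2.27), and Cidec, Cidea and Plin1 are also in the adipocyte list. Of the 6 tested of 10 genes of the pyruvate dehydrogenase list 5 fell, among them Dld (-1.35), Pdk1 (-1.23), Pdhb (-1.74) and Pdhx (-1.10). Of 16 receptors and coregulators 3 fell: Pparg, the fat cell receptor (-2.67), Ppargc1a (-1.51) and Lpin1 (-1.61).

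With the adipocyte covariate edgeR called 0 genes in each of these lists, and the median of the 38 other targets was -0.03 with 3 unadjusted p under 0.05. Without the 4 adipocyte-rich aortae it again called 0 in each list, and the median of the 37 other targets then tested was 0.11. Leaving out single aortae gave 0 to 30 called lower among the other targets, 0 in 9 of 14 fits, with medians of -1.64 to -1.09. The count was 30 without WT-SFD-1445, 28 without KO-SFD-1507, 18 without KO-SFD-1452, 5 without WT-HFD-1447, 4 without KO-HFD-1503 and 0 without any other, and over all genes tested these fits called 12.1%, 5.83%, 2.69%, 1.17% and 1.12% in that order, and otherwise at most 1 gene.

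Of the 16 adipocyte markers 14 fell and 0 rose (3.47% of all tested genes were called lower), with a median of -3.61. Among those that fell were Cfd (-4.34), Thrsp (-4.53), Retn (-4.66) and Fabp4 (-3.66). The 3 Cyp4 relatives and 5 other thioesterases tested gave no call, with the smallest p for Acot11 (-0.61) and Acot13 (-0.44) among the latter. None of 16 clock genes, 5 smooth muscle, 7 leucocyte, 4 red cell, 1 adrenal, 1 other nephron or 6 glucocorticoid-responsive genes was called by edgeR, and of 3 proximal tubule genes the fatty acid transporter gene Slc27a2 fell, which is also a PPAR-alpha target. In neither genotype alone, nor between genotypes, did edgeR call a gene of these lists in the aorta, although 31 of the 38 other targets had an unadjusted p under 0.05 in WT and 23 in KO. In WT alone 17 of 37 other targets were called lower by DESeq2 (3.67% of all genes it tested), 10 of 38 by edgeR without TMM (1.45%) and 27 of 38 by edgeR without a filter on low counts (1.88%). In KO alone DESeq2 called none in these lists, and edgeR without a filter called Cfd.

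Across the 14 aortae the genes closest to the mean of the 7 reached much higher r than in the kidney. They were Pygl (r = 0.988), Adipor2, Tkt, Lipe and Fitm2 (0.987), Hadha (0.985), Atp5a1 (0.984) and Pgd (0.983), as a description over libraries that share their scaling. With group means removed they were Lipe (0.993), Tkt (0.992), Acaca, Pygl (0.989), Cebpa, Fasn, Mdh2 (0.988) and Pnpla2 (0.987). No gene appeared both in these lists and in those of the kidney.

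Of the 9 genes, 6 had a promoter in the RefSeq table of GRCm38.p6 (250 bases before to 50 after the start of the gene): Ppara, Ehhadh, Acot1, Acot2, Pdk4 and Plin2. The letters of a direct repeat read by PPAR dimers, AGGTCANAGGTCA, occurred on either strand in 0 of these 6 and in 0.0481% of 27025 promoters. The looser AGGNCANAGGNCA occurred in 0 of 6 and in 0.451%. The single repeat unit AGGTCA, contained in the former, was found in Plin2 alone, as in 18.1% of all promoters, and the clock-factor word CACGTG also in Plin2 alone, as in 8.09%. TATAAA occurred in 0 of 6 and in 15.7% of all. A missing word says only that these letters are not in this window.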

How the data were processed

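Total RNA of 30 libraries (16 kidneys, 14 aortae) was depleted of ribosomal RNA and sequenced. Per the labels the authors used cutadapt, TopHat and featureCounts on mm10, and deposited raw read counts per gene, 1 file per tissue with 41128 genes. The study's methods name BiomaRt for gene annotation. Strand setting and treatment of reads with several matches are not given in the sources used here. Genes of chromosomes 9, X, Y and MT held no count in either file and were not analysed here, and on chromosome 8 only 1004 of 1749 genes held one.

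Each tissue was fitted separately in edgeR 4.0.16 (R 4.3.3, limma 3.58.1): TMM factors, filter on low counts by group, quasi-likelihood test with 1 coefficient per group, and Benjamini-Hochberg adjustment over all genes tested (15034 in kidney, 14796 in aorta), the threshold being 0.05. The comparisons were diet in each genotype, diet over both genotypes, genotype on each diet, and diet by genotype. Levels are FPM, per kilobase over GENCODE vM21 exons (40254 of 41128 identifiers found). The fits were tested on simulated data. Libraries were compared pairwise for copies, and the smallest chi-square per gene was 9.21 in 120 kidney pairs and 8.38 in 91 aorta pairs, so all libraries were kept as separate.

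The 9 genes and the gene lists were chosen with earlier results of these data known. All 9 genes were tested in every kidney comparison and 7 of them in every aorta comparison. All tested genes are named for diet over both genotypes, and only some of them for the other comparisons. From each other list, up to 4 called genes with the smallest p, or else up to 2 with the smallest unadjusted p, are named, as are the 8 genes most like the mean of the members in each tissue. Cpt1a, Dbp, Per2, the globin genes and the genes named only for DESeq2 or another setting were named after their values were seen. The kidney fit without WT-SFD-1446 was likewise described more fully than the other omissions after the values of that kidney were seen. The values of 1 gene in the list of other PPAR-alpha targets are not reported here, and it is still counted in that list. Alternatives were DESeq2 1.42.0, library totals without TMM, no filter, the study's threshold of 0.001, marker means as covariates, leaving out each library and, chosen after seeing the data, a clock covariate in the kidney, the omission of the 4 SFD aortae with the most adipocyte transcript, and the counts of the gene lists under these settings.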

Additional observations from a re-analysis of the deposited data

Results flagged for a closer look

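Of 50 groups of 4 libraries tested for an outlying library with Dixon's gap ratio (critical value 0.829), 3 held one, where chance alone gives about 1 in 20, or 5%.

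In WT-SFD kidneys, Cyp4a14 stood at 488 FPM in WT-SFD-1446, whose gap to the next kidney (88.4 FPM) was 0.888 of the group's range. In KO-HFD kidneys, Cyp4a14 stood at 109 FPM in KO-HFD-1558, with a gap of 0.851 of the range to the next kidney (86.0 FPM). In KO-HFD aortae, Acot2 stood at 11.6 FPM in KO-HFD-1503, with a gap of 0.842 of the range to the next aorta (6.32 FPM). The cause of these values was not tested.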

How the results depend on the processing

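Between diets over both genotypes, the count of 1 called gene in the kidney (Ppara) became 0 without TMM (0.79, adjusted p = 0.0515), with the tubule marker covariate (0.63, adjusted p = 0.228), with the clock covariate (0.67, adjusted p = 0.0755) and at 0.001, and 0 to 2 when single libraries were left out. In the KO diet comparison the kidney count of 0 became 1 with DESeq2 and 0 to 1 without single libraries (KO-SFD-1319 for the latter). In the aorta over both genotypes the count of 4 became 0 with the adipocyte covariate, without the 4 adipocyte-rich aortae and at 0.001, and 0 to 6 without single libraries (2 without KO-SFD-1452, 4 without KO-SFD-1507, 6 without WT-SFD-1445). In WT aortae the count of 0 became 4 with DESeq2 (4.36% of all genes called), 3 without TMM (1.48%), 4 without a filter on low counts (1.96%) and 0 to 6 without single libraries (3 without KO-SFD-1507, 4 without KO-SFD-1319, 6 without WT-SFD-1445, where 333, 497 and 1801 of all genes were called). The genotype and diet-by-genotype counts were 0 under every alternative run.

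Signs turned in kidney differences that had not passed. In WT between diets Acot2 was 0.015 without TMM and 0.0089 with the tubule covariate, and Cyp4a14 was 0.55 with the tubule and 0.73 with the clock covariate. In KO with the tubule covariate Plin2 was -0.016 and Cyp4a10 0.049. Leaving out single kidneys gave ranges of -0.53 to 0.019 (Acot1) and -1.71 to 0.31 (Cyp4a14) between genotypes on SFD, of -0.092 to 0.17 (Acot2), -0.50 to 0.089 (Cyp4a10) and -0.42 to 1.42 (Cyp4a14) between diets in WT, of -0.20 to 0.66 (Pdk4) in KO, and of -0.20 to 0.065 (Angptl4) and -0.040 to 0.87 (Cyp4a14) over both genotypes.

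In aortae the adipocyte covariate turned Acot2 in WT (0.17), Ppara in KO (0.054) and, over both genotypes, Plin2 (0.11), Pdk4 (0.33), Acot2 (0.32) and Angptl4 (0.51), with Ppara at -0.10 and Ehhadh at -0.02. In KO the estimates of Plin2, Pdk4, Acot2, Angptl4 and Ehhadh turned too, as their values in WT, over both genotypes and by genotype imply. Without the 4 adipocyte-rich aortae the differences were 0.49 (Plin2), 0.66 (Pdk4), 0.57 (Acot2), 0.60 (Ppara), 0.23 (Ehhadh) and 0.45 (Angptl4) in WT, and 0.50, 0.82, 0.38, 0.24, 0.26 and 0.96 in that order over both genotypes. These alternatives do not tell fat cells from other sources of the same transcript, and the cause was not tested. Scaling without TMM moved the median of all aortic genes by 0.112 for diet in WT, -0.106 for diet in KO, 0.291 for genotype on SFD and -0.217 for diet by genotype, and that of the kidney by less. The 26 other PPAR-alpha targets called lower in the aorta over both genotypes became 0 with the adipocyte covariate and without the 4 adipocyte-rich aortae, and 0 to 30 without single libraries. Counts per library limit Acot1 in the aorta (2 to 22 counts).

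No paired analysis was possible because the library numbers differ between the groups of a tissue and the replicate numbers follow accession order.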
